A study of Mus musculus with 7 samples.

Results

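Of the 28987 genes in the deposited table, 8 were followed: the architectural chromatin factors Hmga2 and Hmga1, the let-7 inhibitors Lin28a and Lin28b, the RNA-binding proteins Igf2bp2 and Igf2bp3, the transcription factor Arid3a, and Ngfr, the p75 neurotrophin receptor. The first 7 were taken as HMGA genes and genes linked to let-7. Ngfr was chosen by its TPM in these same 7 libraries, which follow the HMGA2-OE labels, so its difference between libraries with and without HMGA2-OE is a description and received no test. The 7 RNA-seq libraries, in 6 groups, each came from the bone marrow of a C57BL/6 mouse. Cells called HSC/P (stem and progenitor cells) were enriched by CD117 selection and then sorted for the mutant clone: HMGA2-OE (1 library) and RUNX1 mutant with HMGA2-OE, written RUNX1mut/HMGA2-OE below (2 libraries). Ly6G+ myeloid cells were sorted from 1 Control, 1 RUNX1 mutant (RUNX1mut), 1 HMGA2-OE and 1 RUNX1mut/HMGA2-OE mouse. No HSC/P library lacked HMGA2-OE, so HMGA2-OE could be compared in Ly6G+ cells only. The labels do not describe how HMGA2 was overexpressed, which sequence was used, what drives it, how the clone was marked, which RUNX1 mutation was carried, or the ages of the mice. Whether the Hmga2 or Ngfr rows include reads from the construct or from the marker of the clone could not be examined.

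HMGA2 is a small protein that binds the minor groove of AT-rich DNA and bends it. It is abundant in embryonic tissue and fetal blood stem cells and low in most adult cells. LIN28 proteins block the processing of let-7 microRNAs, and let-7 represses HMGA2, so LIN28, let-7 and HMGA2 form an axis that sets fetal against adult features of blood stem cells. IGF2BP2 and IGF2BP3 bind mRNAs and regulate their translation and stability, and Igf2bp2 is a known target gene of HMGA2. ARID3A is a DNA-binding factor of B lymphoid and myeloid cells. NGFR binds neurotrophins, acts with co-receptors such as sortilin, and is used as a marker of some stromal and neural crest cells.

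The let-7 sequences are shown first because the seed they share defines what links these genes. All 9 mature 5′ arms of the family in the RefSeq table (GRCm38.p6) carry the seed GAGGUAG at bases 2 to 8, in capitals. The 4 shown are let-7a (Mirlet7a-1, chromosome 13, 48538239 to 48538260, minus strand), let-7d (chromosome 13, 48536078 to 48536099, minus strand), let-7g (chromosome 9, 106178846 to 106178867, plus strand) and miR-98 (chromosome X, 151913229 to 151913250, plus strand), which differ outside the seed.
mmu-let-7a-5p: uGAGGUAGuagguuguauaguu
mmu-let-7d-5p: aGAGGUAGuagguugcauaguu
mmu-let-7g-5p: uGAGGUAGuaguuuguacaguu
mmu-miR-98-5p: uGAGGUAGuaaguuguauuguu

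The complement of the seed, CTACCTC, was searched on the sense strand of the longest annotated 3′ untranslated region of each gene (GENCODE M21, GRCm38, the build named mm10). It occurred in 7 of the 8 genes, 15 times in all, against 9.3% of the 19733 genes with such a region. Hmga2 held 4 matches in 3014 nt and Lin28b 4 in 4445 nt. Among genes with a region within 20% of that length, 0.1% held as many as Hmga2 and 0.2% as many as Lin28b. Lin28a and Arid3a held 2 each, and Hmga1, Igf2bp2 and Igf2bp3 held 1 each. Ngfr, with 1985 nt, held none, and 13% of genes with a region of like length hold one. Because 7 genes were chosen for their link to let-7, these counts describe the choice. The 22-base windows below show the match in capitals for the genes whose levels are followed in detail; the name gives the first base of the match, counted from 1 after the stop codon.
Hmga2 at 58: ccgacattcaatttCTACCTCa
Hmga2 at 1295: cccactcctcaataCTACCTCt
Hmga2 at 1733: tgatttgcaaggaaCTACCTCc
Hmga2 at 2591: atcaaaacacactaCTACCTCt
Hmga1 at 801: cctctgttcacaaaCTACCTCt
Igf2bp2 at 1313: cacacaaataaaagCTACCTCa
Lin28a at 909: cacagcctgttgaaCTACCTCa
Arid3a at 1974: aggcaagtttctttCTACCTCa

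**Figure D1:**
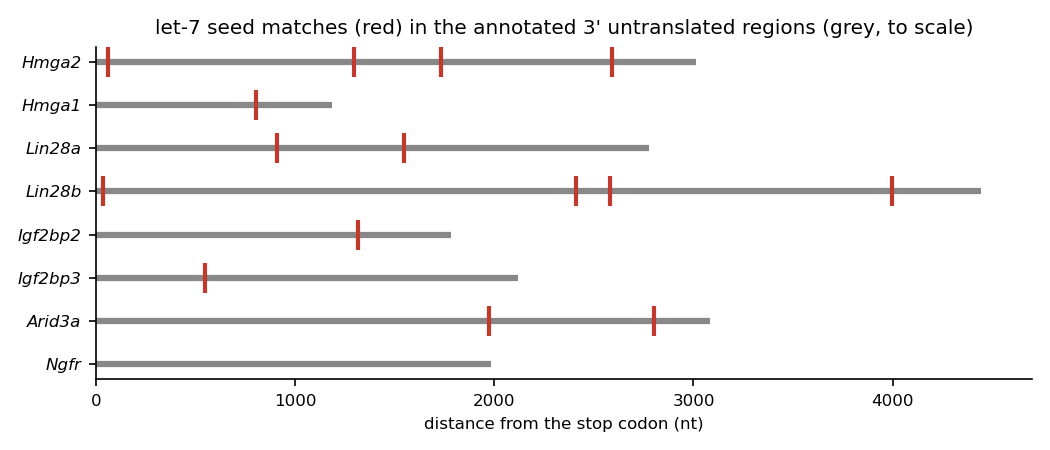
Seed matches (red ticks) along the longest annotated 3′ untranslated region of each gene (grey bars, to scale, in nt from the stop codon). Hmga2 and Lin28b carry 4 matches each and Ngfr carries none.

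Mature let-7 was not among the RNAs listed. Of 15 let-7 host transcripts looked for, 1 was in the table, Mir99ahg, listed at 0 in 6 libraries and at 0.0156 TPM in the other.

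Expression is in TPM, a share of the library's transcripts that scales each gene by its length and each library to a fixed total. The depth is unknown because no counts were used. The Runx1 row moved with the RUNX1 labels: it was 18.9 TPM in HSC/P HMGA2-OE against 219 and 225 TPM in the RUNX1mut/HMGA2-OE libraries, and in Ly6G+ cells 3.85 (Control) and 3.36 (HMGA2-OE) against 11.6 (RUNX1mut) and 21.2 TPM (RUNX1mut/HMGA2-OE). S100a8 took 44.3% of the Control, 40.2% of the RUNX1mut and 55% of the HMGA2-OE Ly6G+ library but 3.11% of the Ly6G+ RUNX1mut/HMGA2-OE library, which stood apart. Its scaling factor, by which TPM were divided, was 1.58, against 0.69 to 1.02 in the other 3. Ly6g itself was 441 TPM in that library and 270 to 415 in the other Ly6G+ libraries. The HSC/P libraries differed too: Ly6g was 136 TPM in HMGA2-OE against 7.28 and 16.8 in the RUNX1mut/HMGA2-OE libraries, and the summed TPM of 8 stem and progenitor markers was 323 against 877 and 863. In such bulk samples fewer cells of a type and less RNA per cell cannot be told apart. For comparisons, TPM were scaled within each set of libraries by a trimmed mean of log ratios, and differences are on the log2(scaled TPM + 1) scale, which understates changes of low genes.

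**Figure D2:**
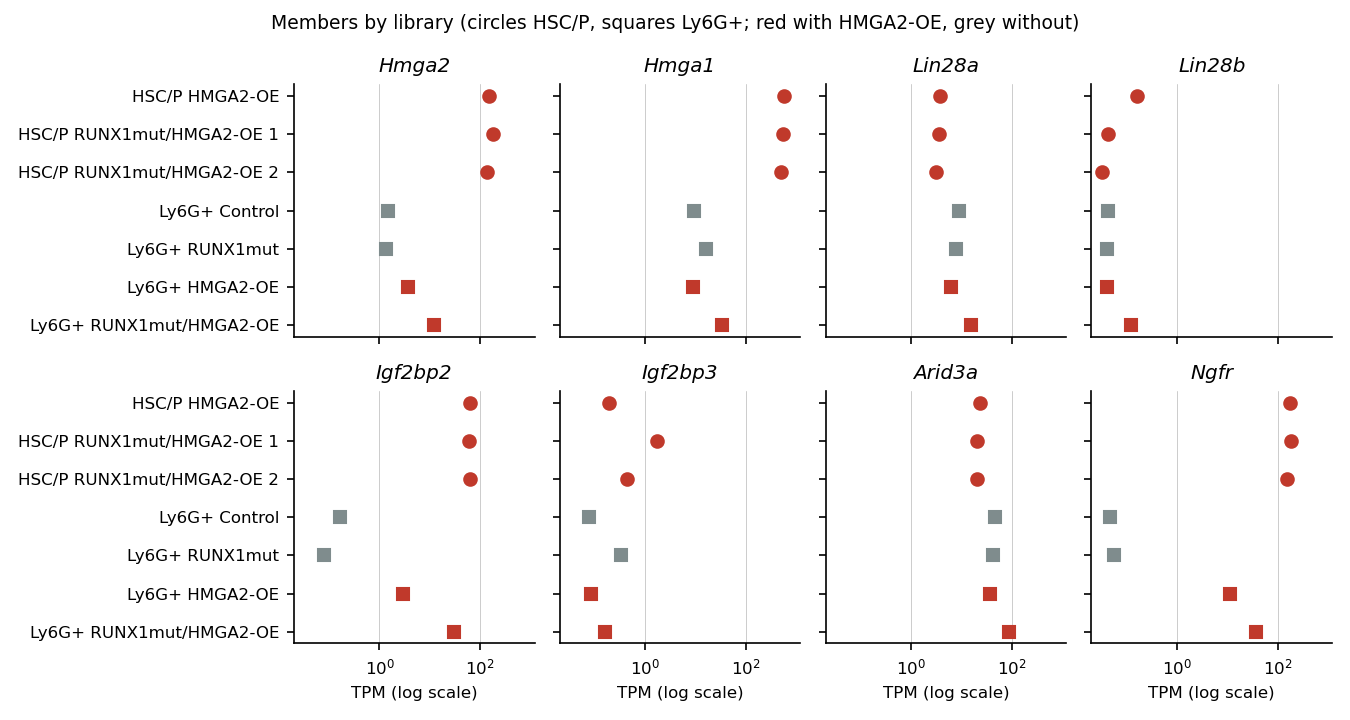
TPM of the 8 genes (panels, log axis) in the 7 libraries (rows; circles HSC/P, squares Ly6G+, red with HMGA2-OE, grey without). Ngfr and Igf2bp2 sit below 0.2 TPM in both grey libraries and at 2.94 TPM or more in every red one, whereas Lin28a and Arid3a are lower in HSC/P than in Ly6G+ cells.

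Hmga2 (ENSMUSG00000056758, chromosome 10, 120361275 to 120476469, minus strand) was listed at 147 TPM in HSC/P HMGA2-OE, 176 and 138 TPM in HSC/P RUNX1mut/HMGA2-OE, and 1.45 and 1.36 TPM in the Ly6G+ Control and RUNX1mut libraries. With HMGA2-OE the Ly6G+ values were 3.72 TPM, and 12.1 TPM where the RUNX1 mutation was also present. The 3 HSC/P libraries were thus high, and within Ly6G+ cells both HMGA2-OE libraries were above both without it. Among the genes listed above 0 it lay at percentiles 94.7 to 96.2 in HSC/P and 51.8 in Ly6G+ Control. The antisense gene 1700006J14Rik lies inside the Hmga2 locus, and no source used here states whether strand was kept. It was 15.5, 6.71 and 9.68 TPM in HSC/P and 2.27, 2.26, 0 and 4.53 TPM in Ly6G+ Control, RUNX1mut, HMGA2-OE and both combined. In Ly6G+ Control and RUNX1mut it was above Hmga2, in HMGA2-OE and the combined library below it, and its part in the Hmga2 values was not tested.

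Hmga1 (ENSMUSG00000046711, chromosome 17, 27556497 to 27563674, plus strand) was 580, 534 and 492 TPM in HSC/P. It was 9.36, 16.2, 8.9 and 33.1 TPM in the Ly6G+ libraries, taken in the order Control, RUNX1mut, HMGA2-OE, RUNX1mut/HMGA2-OE. It was the most abundant of the 8 genes in HSC/P. Its copy Hmga1b was 0 to 0.308 TPM, and reads of such near-identical copies may be split between them. The antisense gene AI413582 overlaps the Hmga1 locus. It was 29.4, 45.5 and 40.7 TPM in HSC/P and 16.2, 21.8, 13 and 30.2 TPM in the Ly6G+ libraries, in the same order. It was above Hmga1 in Ly6G+ Control, RUNX1mut and HMGA2-OE and below it in the other libraries. Its part in the Hmga1 values was not tested.

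Igf2bp2 (ENSMUSG00000033581, chromosome 16, 22059009 to 22163299, minus strand) was 61.9, 59.3 and 63 TPM in HSC/P. The Ly6G+ values, in that order, were 0.168, 0.0786, 2.94 and 29.7 TPM. The 2 libraries without HMGA2-OE were low (percentiles 26.2 and 14.2), HMGA2-OE was higher (64.7), and RUNX1mut/HMGA2-OE (85.4) came near the HSC/P libraries (86.8 to 88). Igf2bp3, its relative of fetal tissue, stayed between 0.0751 and 1.74 TPM, with the highest value in 1 HSC/P RUNX1mut/HMGA2-OE library and 0.439 TPM in the other.

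Ngfr (ENSMUSG00000000120, chromosome 11, 95568818 to 95587735, minus strand) was 172, 183 and 155 TPM in HSC/P. The Ly6G+ values were 0.0477, 0.0562, 11.4 and 36.8 TPM. This placed it at percentiles 95.4 to 96.4 in HSC/P, 11.6 and 11 in the 2 libraries without HMGA2-OE, and 82.7 and 87.5 in the 2 Ly6G+ libraries with it.

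Lin28a (ENSMUSG00000050966, chromosome 4, 134003330 to 134018841, minus strand) was 3.7, 3.63 and 3.09 TPM in HSC/P and 9.08, 7.89, 6.07 and 15.3 TPM in the Ly6G+ libraries. Every Ly6G+ library was above every HSC/P library. Its 4 annotated transcripts include one of 394 nt against 3505 nt for the longest, and gene-level TPM do not say which was read. Lin28b (chromosome 10, 45376620 to 45486395, minus strand), the paralog known for fetal liver, stayed between 0.0322 and 0.157 TPM in all 7 libraries. Arid3a (ENSMUSG00000019564, chromosome 10, 79927043 to 79955018, plus strand) was 23.2, 20.1 and 19.9 TPM in HSC/P and 45.5, 42.9, 37.3 and 87.7 TPM in Ly6G+ cells. As with Lin28a, the HSC/P libraries were all below the Ly6G+ libraries.

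By TPM the order in each HSC/P library was led by Hmga1, with Ngfr and Hmga2 next, then Igf2bp2, Arid3a and Lin28a, and Igf2bp3 and Lin28b last. Ngfr and Hmga2 did not separate beyond their spread there (155 to 183 against 138 to 176 TPM). In Ly6G+ Control the order was Arid3a, Hmga1, Lin28a and Hmga2, with the other 4 genes below 0.2 TPM; Hmga1 and Lin28a were 9.36 and 9.08 TPM, and 1 library gives no spread to separate them.

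A ratio of genes within a library does not depend on how libraries are scaled. Ngfr over Hmga2 was 1.17, 1.04 and 1.12 in HSC/P, 0.0328 and 0.0413 in the Ly6G+ Control and RUNX1mut libraries, and 3.05 and 3.04 in the Ly6G+ HMGA2-OE and RUNX1mut/HMGA2-OE libraries. The low ratios without HMGA2-OE follow from the choice of Ngfr. Among the 5 libraries with HMGA2-OE, the ratio was higher in both Ly6G+ libraries than in the 3 HSC/P libraries. Igf2bp2 over Hmga2 was 0.422, 0.337 and 0.458 in HSC/P, 0.115 and 0.0578 in Ly6G+ cells without HMGA2-OE, and 0.791 and 2.46 with it. Lin28a over Arid3a lay between 0.155 and 0.2 in all 7 libraries.

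**Figure D3:**
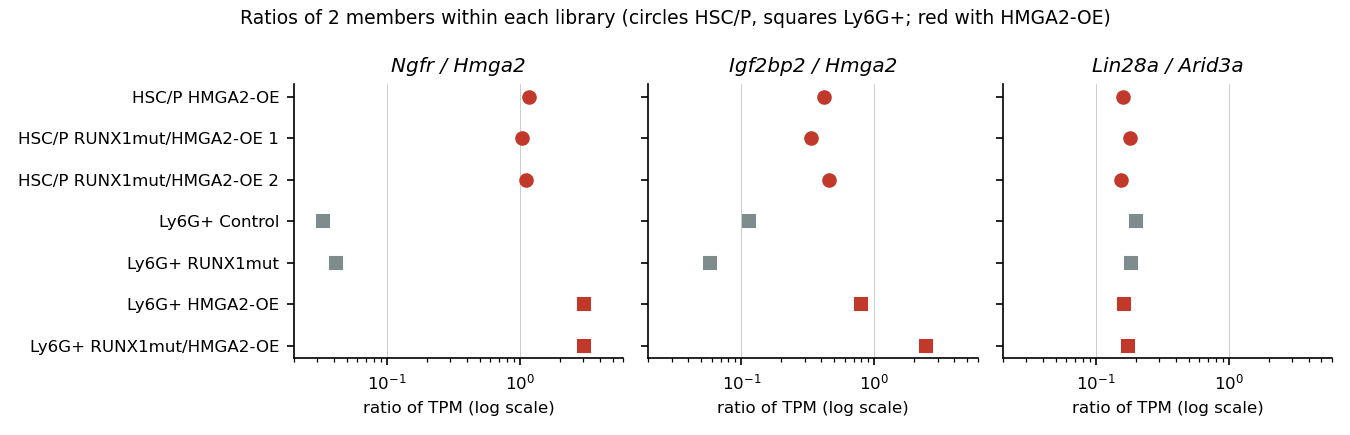
Ratio of TPM of 2 genes within each library (log axis; rows are libraries, circles HSC/P, squares Ly6G+, red with HMGA2-OE, grey without). Ngfr over Hmga2 is 3.05 and 3.04 in the Ly6G+ libraries with HMGA2-OE and 1.04 to 1.17 in HSC/P, and Lin28a over Arid3a stays between 0.155 and 0.2.

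In Ly6G+ cells the question was what differed with HMGA2-OE, with or without the RUNX1 mutation. Scaled within these 4 libraries, Hmga2 was 1.61 and 1.33 TPM in Control and RUNX1mut and 5.39 and 7.65 TPM in HMGA2-OE and RUNX1mut/HMGA2-OE. On the log2 scale HMGA2-OE exceeded Control by 1.29, and RUNX1mut/HMGA2-OE exceeded RUNX1mut by 1.89. Igf2bp2 was 0.186 and 0.0771 scaled TPM without HMGA2-OE against 4.26 and 18.8 with it, log2 differences of 2.15 and 4.20. Ngfr was 0.053 and 0.0551 against 16.4 and 23.3, log2 differences of 4.05 and 4.53. Hmga1 (0.29 and 0.38), Arid3a (0.10 and 0.39) and Lin28a (-0.18 and 0.29) differed by less than 1 in both pairs; without scaling the first pair gave -0.07 for Hmga1 and -0.28 for Arid3a. Of the 6 genes above the filter on low values (1 TPM in 2 libraries of the set), 3 were at least 2-fold higher in both pairs, against 0.58% of the 9820 genes; none was 2-fold lower in both, against 1.34%. Nothing is read from that count: Ngfr had been chosen for this difference, and Ngfr and Igf2bp2 passed the filter only through the libraries with HMGA2-OE.

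**Figure D4:**
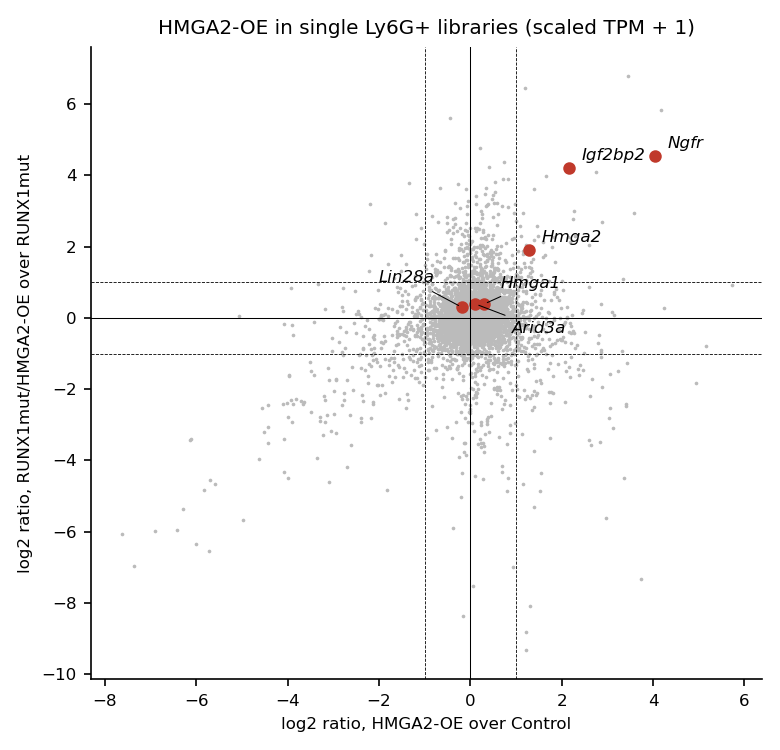
Log2 ratio of scaled TPM + 1 between single Ly6G+ libraries for 9820 genes (grey) and the 6 genes above the filter (red): HMGA2-OE over Control on the horizontal axis, RUNX1mut/HMGA2-OE over RUNX1mut on the vertical axis, dashed lines at 2-fold. Ngfr (4.05, 4.53), Igf2bp2 (2.15, 4.20) and Hmga2 (1.29, 1.89) lie in the upper right corner, and the other 3 lie near the origin.

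No genotype was replicated in Ly6G+ cells, so limma was fitted with additive terms for HMGA2-OE and the RUNX1 mutation, and the departure from additivity served as the spread. In that fit 0 of 9820 genes passed the Benjamini-Hochberg threshold of 0.05 for HMGA2-OE (0%; 639 had an unadjusted p below 0.05), and none of the tested genes here did. The HMGA2-OE term was 1.59 ± 0.22 (SE) for Hmga2 (limma, unadjusted p = 0.00827, adjusted p = 0.581) and 3.18 ± 0.64 for Igf2bp2 (limma, unadjusted p = 0.0204, adjusted p = 0.69). Hmga2 is the gene that the HMGA2-OE label names, so its term and p are a check of that label. Igf2bp2 and Ngfr passed the filter on low values only through the 2 HMGA2-OE libraries, so in this set both had to be higher there, and the term and p of Igf2bp2 are a description. Hmga1 had 0.33 ± 0.11, Arid3a 0.25 ± 0.14 and Lin28a 0.06 ± 0.18. The adjusted p for Igf2bp2 was 2.79e-05 without scaling and 0.0403 in an additive limma fit to the other 6 libraries once the Ly6G+ RUNX1mut/HMGA2-OE library was left out (term 2.76), and between 0.12 and 0.831 in its other 7 alternatives. The term for Igf2bp2 was 5.33 with a pseudocount of 0.1 TPM and 1.53 with 5 TPM, and that for Ngfr, 4.29 in the main setting, was 7 and 2.28, since both genes start near 0.

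Markers of stem and progenitor cells were measured beside these values. Their summed TPM in the Ly6G+ libraries, without scaling, was 12 (Control), 28.7 (RUNX1mut), 9.75 (HMGA2-OE) and 37.1 (both). That is 0.816 times in HMGA2-OE over Control and 1.29 times in the pair with the mutation. After scaling, 7 of these markers were tested for the HMGA2-OE term, 3 higher and 4 lower. Their median was -0.02, against 0.01 over all genes. No marker of the 8 was at 0. As a percent of the HSC/P level of the same genotype, the 8 markers were at 0.802 to 8.68% (median 2.6%) in Ly6G+ HMGA2-OE, and Hmga2 was at 2.54%, Igf2bp2 at 4.76% and Ngfr at 6.61%. In Ly6G+ RUNX1mut/HMGA2-OE the markers were at 2.69 to 7.21% (median 3.74%), Hmga2 at 7.7%, Ngfr at 21.8% and Igf2bp2 at 48.6%. In the first library the 3 genes therefore lay within the range of the progenitor markers, and in the second above it. The Ly6G+ RUNX1mut library, with a marker sum of 28.7 TPM, had Ngfr at 0.0562 TPM. That value is a description, since Ngfr had been chosen for following the HMGA2-OE labels. Without an HSC/P library that lacks HMGA2-OE, the Ngfr level of such progenitors is unknown. Of the cell types in which NGFR is a known marker, the 8 stromal genes summed to 0.597 to 2.95 TPM in Ly6G+ and 2.94 to 14 TPM in HSC/P libraries. The Schwann cell and nerve genes summed to 0.504 to 1.09 and 4.73 to 6.11 TPM, with Sox10, the defining factor, listed at 0 in all 7. The follicular dendritic cell genes Cr2 and Mfge8 summed to 0.231 to 1.64 and 11 to 31.9 TPM. The part of any of these cells in the results was not tested.

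The RUNX1 term in the same Ly6G+ libraries was largest for Igf2bp2 (0.89 ± 0.64) and most precise for Hmga1, at 0.62 ± 0.11 (limma, unadjusted p = 0.0163, adjusted p = 0.331). Hmga1 was 10.4 and 12.9 scaled TPM in Control and HMGA2-OE against 15.9 and 21 in the libraries with the mutation, both of which were above both without it. In this fit 0 of 9820 genes passed (0%; 1406 had an unadjusted p below 0.05). None of the 6 genes was 2-fold higher or lower in both pairs, against 1.49% of genes higher and 1.21% lower. Ngfr had 0.24 ± 0.19 and Hmga2 0.14 ± 0.22, with 95% intervals from -0.42 to 0.9 and from -0.63 to 0.9. Lin28a and Arid3a both had -0.11, which became 0.51 and 0.56 without scaling, where the median of all genes moved from 0.01 to 0.58. The progenitor marker sum, in TPM without scaling, was 2.4 and 3.8 times as high with the mutation in the 2 pairs. After scaling, 6 of 7 tested markers were higher with the mutation and 1 was lower, with a median of 0.98 (0.01 over all genes). Summed megakaryocyte markers were 3.03, 42.7, 3.86 and 58.6 TPM and summed erythroid markers 80.8, 250, 64.4 and 5540 TPM, in the order of the Ly6G+ libraries above. The part of these cells, or of the antisense gene AI413582, in the Hmga1 values was not tested.

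The single pairs behind the Igf2bp2 term were unequal. RUNX1mut minus Control was -0.14 for Igf2bp2, and RUNX1mut/HMGA2-OE minus HMGA2-OE was 1.91, from 4.26 to 18.8 scaled TPM. For Ngfr the same pairs gave 0 and 0.48. These pairs share their libraries with the HMGA2-OE pairs above and rest on 1 library each, one of them the library low in S100a8.

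In HSC/P, where every library carried HMGA2-OE, the comparison was RUNX1mut/HMGA2-OE (2 libraries) against HMGA2-OE (1 library). All 6 genes above the filter were close in the 3 libraries, with fitted differences of -0.06 to -0.34. Hmga2 had -0.06 ± 0.21 (95% interval -0.68 to 0.55), Ngfr -0.18 ± 0.17 (-0.67 to 0.31) and Igf2bp2 -0.16 ± 0.13 (-0.54 to 0.21). Hmga1 had -0.33 ± 0.13, Arid3a -0.34 ± 0.17 and Lin28a -0.23 ± 0.29. Their limma adjusted p ran from 0.353 for Hmga1 to 0.899 for Hmga2, and 0 of 12226 genes passed (0%; 1894 had an unadjusted p below 0.05). HMGA2-OE is 1 library here, so these intervals rest on the spread of the 2 RUNX1mut/HMGA2-OE libraries, with 1 residual degree of freedom before limma pools genes. Of the 6 intervals, that of Lin28a reached a 2-fold difference (-1.05). In the same comparison the Runx1 difference was 3.34 ± 0.12 (limma adjusted p = 0.109), so even it did not pass. Marker genes of several cell types differed alongside, although none passed, against a median of 0 over all genes. The fitted values were above 0 for all 8 progenitor (median 1.76), 4 megakaryocyte (2.14), 4 mast cell and basophil (0.85), 4 B lymphoid (0.16) and 3 tested endothelial genes (1.46). They were below 0 for all 8 neutrophil (-2.04) and 5 erythroid genes (-1.10). Of the endothelial genes, Kdr and Emcn were 0.0502 and 0.225 TPM in HSC/P HMGA2-OE. Both passed the filter only through the RUNX1mut/HMGA2-OE libraries, so their direction is a description. The part of these cell types in the members' small differences was not tested. In the main fits, p-values in Ly6G+ cells rest on the departure from additivity. The other p-values rest on the spread of the 2 HSC/P RUNX1mut/HMGA2-OE libraries. None measures a wider spread between mice.

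**Figure D5:**
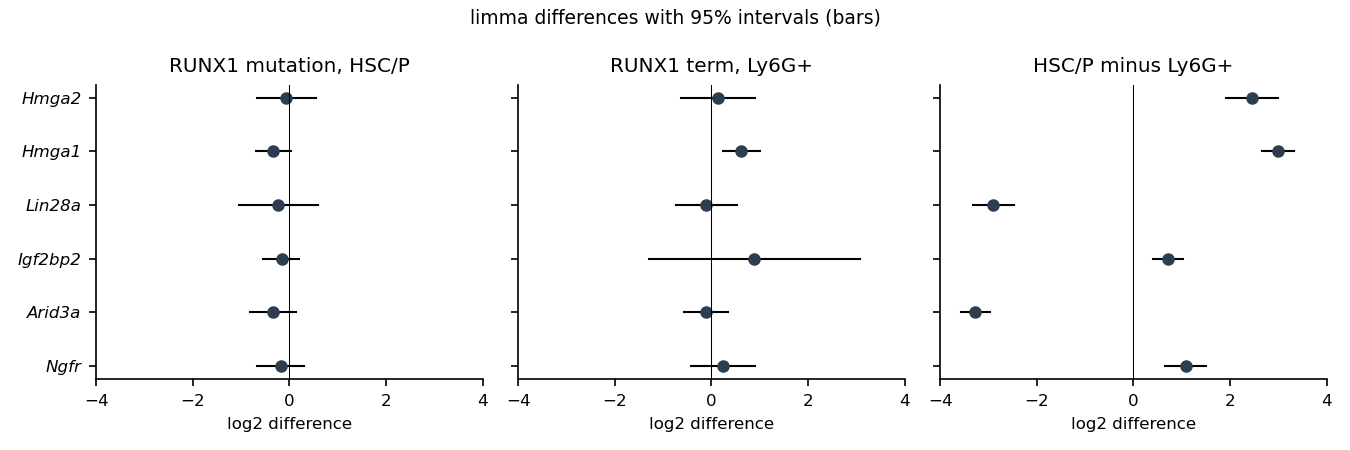
Fitted log2 differences (points) with 95% intervals (bars) of the 6 genes for the RUNX1 mutation in HSC/P (left), the RUNX1 term in Ly6G+ cells (middle) and HSC/P minus Ly6G+ cells with HMGA2-OE (right). The left points lie between -0.34 and -0.06, and on the right Hmga1 (3) and Hmga2 (2.46) are highest and Arid3a (-3.27) is lowest.

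The cell types were compared in the 5 libraries with HMGA2-OE, giving both genotypes equal weight. Only HSC/P RUNX1mut/HMGA2-OE had 2 libraries, so the spread came from these alone, with 1 residual degree of freedom before limma pools genes. Each Ly6G+ genotype was 1 library, so the SE and p hold no spread between Ly6G+ mice. Hmga1 and Hmga2 were higher in HSC/P, by 3 ± 0.10 and 2.46 ± 0.17 (limma adjusted p = 0.00201 and 0.00345), and Arid3a and Lin28a were lower, by -3.27 ± 0.09 and -2.91 ± 0.13 (0.00201 and 0.0023). Ngfr was higher in HSC/P by 1.08 ± 0.13 (limma adjusted p = 0.00916) and Igf2bp2 by 0.71 ± 0.09 (0.0106). All 6 passed, 4 higher and 2 lower, where 71.5% of 12686 genes passed, 35.9% higher and 35.7% lower, so passing did not set these genes apart. Scaled Ngfr was 107, 102 and 85.2 TPM in HSC/P and 40.2 and 54.3 in Ly6G+ cells, without overlap. Scaled Igf2bp2 was 38.4, 33.2 and 34.7 TPM in HSC/P against 10.4 in Ly6G+ HMGA2-OE and 43.8 in Ly6G+ RUNX1mut/HMGA2-OE, so its groups overlapped and its call joins pairs of opposite direction. That call was lost in the additive fit (0.56, limma adjusted p = 0.392) and in that fit without HSC/P RUNX1mut/HMGA2-OE replicate 1 (0.70, adjusted p = 0.376) or replicate 2 (0.68, adjusted p = 0.39), and the difference rose to 1.75 without the Ly6G+ RUNX1mut/HMGA2-OE library. The call for Ngfr was lost in the additive fit without HSC/P RUNX1mut/HMGA2-OE replicate 1 (0.99, limma adjusted p = 0.0546).

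For these 6 genes scaling set the size of the differences but not their direction. For some genes of the lists below it set the direction too. Without scaling Hmga1 was 4.89, Hmga2 4.27, Ngfr 2.98 and Igf2bp2 2.51 higher in HSC/P, and Arid3a and Lin28a were -1.37 and -1.25, while the median of all genes moved from 0.10 to 1.49. Among all called genes 50.1% were higher in HSC/P in the main setting, 64.2% with upper-quartile scaling and 86.1% with none.

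The difference of the RUNX1 effect between the cell types was tested in the same 5 libraries. The spread again came from the HSC/P RUNX1mut/HMGA2-OE replicates alone. Igf2bp2 had -2.15 ± 0.19 (limma, unadjusted p = 0.00158, adjusted p = 0.134) and Hmga1 -0.96 ± 0.20 (adjusted p = 0.207), and in each the RUNX1 difference was lower in HSC/P than in Ly6G+ cells. In all, 0 of 12686 genes passed (0%; 2297 had an unadjusted p below 0.05). Igf2bp2 passed with no filter on low values (-2.11, limma adjusted p = 0.0355), a setting in which 3247 genes passed.

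Genes related to the 8 were followed in lists. For the RUNX1 and HMGA2-OE comparisons no gene of any list passed, but no gene at all did (0 of 12226 in HSC/P and 0 of 9820 in Ly6G+ cells). That absence therefore says nothing about the lists. Of the 18 genes of let-7 biogenesis and decay, 15 were tested for the HMGA2-OE term, with 10 higher, 5 lower and a median of 0.08 (0.01 over all genes). Its most abundant genes over all 7 libraries, Hnrnpa1 (0.05 ± 0.16), Ddx5 (0.08 ± 0.10), Ddx17 (0.09 ± 0.12) and Khsrp (0.18 ± 0.15), which bind let-7 precursors or the processing complex, were near 0. Of 29 reported let-7 targets, 22 were tested, 16 higher and 6 lower, with a median of 0.06. Gng5 had 0.32 ± 0.10 and Cdc34 0.22 ± 0.15. Thbs1, a secreted matrix protein, was 57.6 and 85.6 TPM without HMGA2-OE and 104 and 279 TPM with it, a term of 1.14 ± 0.11 (limma adjusted p = 0.405). In HSC/P the RUNX1 medians were 0.01 for let-7 biogenesis (17 genes) and -0.07 for let-7 targets (24 genes), against 0 over all genes.

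Between the cell types, 10 of 17 tested genes of let-7 biogenesis and decay were higher in HSC/P (Drosha, Dgcr8, Dicer1, Xpo5, Ago1, Tut4, Dis3l2, Ddx17, Khsrp and Hnrnpa1) and 2 were lower (Ago4 and Tut7), with a median of 0.95 (0.10 over all genes). Over all genes tested, 35.9% were called higher and 35.7% lower. Ago1 was 0.0862 and 0.279 TPM in Ly6G+ HMGA2-OE and RUNX1mut/HMGA2-OE. It passed the filter only through HSC/P, so its call is a description. Drosha, which cuts primary microRNAs in the nucleus, was 24.9, 23.2 and 28.5 TPM in HSC/P and 0.231 and 1.92 TPM in Ly6G+ cells with HMGA2-OE (2.59 ± 0.15, limma adjusted p = 0.00277). Hnrnpa1 had 3.95 ± 0.08 (limma adjusted p = 0.00201). Tut7, a uridylyltransferase that acts on let-7 precursors, was -2.01 ± 0.11, and Tut4, its relative, 0.95 ± 0.10. The let-7 targets split evenly: 10 of 24 were higher (Myc, Mycn, Ccnd1, Ccnd2, Cdk6, E2f5, E2f6, Hras, Dicer1 and Ddx19b) and 10 lower (among them Thbs1, Fas, Arid3b, Insr, Gng5, Irs2, Tgfbr1, Cdc34 and Nras), against 35.9% and 35.7% of all genes, with a median of 0.09. Those higher include the cell cycle factors Myc (3.93 ± 0.12) and Ccnd1 (3.67 ± 0.58), and those lower include the death receptor Fas (-5.28 ± 0.31) and Thbs1 (-5.25 ± 0.13). Ccnd1, E2f5 and Ddx19b were below 1 TPM in both Ly6G+ libraries with HMGA2-OE. They passed the filter only through HSC/P, so their calls are a description. Cdc34 and Nras were lower only after scaling. In TPM every HSC/P library was above both Ly6G+ libraries with HMGA2-OE for each of them.

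Other high mobility group genes did not move as one. Of 9 tested, 6 were higher in HSC/P (among them Hmgn1, Hmgn5, Hmgb3, Hmg20b and Hmgb1) and 2 lower (Hmgn2 and Hmgb2), against 35.9% and 35.7% of all genes, with a median of 1.47. Hmgb2 was lower only after scaling. It was 561, 455 and 485 TPM in HSC/P and 205 and 443 TPM in Ly6G+ HMGA2-OE and RUNX1mut/HMGA2-OE. The nucleosome-binding factor Hmgn1 had 3.82 ± 0.40 and Hmgn2, the most abundant of the list, -2.20 ± 0.11. For the HMGA2-OE term 4 of 8 were higher and 4 lower (median 0.04), with Hmgn2 at 0.33 ± 0.15, Hmgb1 at 0.40 ± 0.21, Hmgb2 at 0.12 ± 0.11 and Hmgb3 at -0.03 ± 0.11. Of 4 paralogs of the 8 genes, only Arid3b was tested: it was 4.38, 4.37 and 5.09 TPM in HSC/P and 14.1 to 39.8 TPM in the 4 Ly6G+ libraries (-3.65 ± 0.12, limma adjusted p = 0.00201), the same direction as Arid3a. Igf2bp1 stayed between 0.147 and 0.701 TPM.

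Of the 15 fetal and imprinted growth genes, 13 were in the table and 5 were tested between the cell types. Grb10 was higher in HSC/P (0.83 ± 0.14) and Igf2r, a receptor that clears IGF2, was lower (-1.49 ± 0.16). Grb10 was 0.829 and 0.414 TPM in Ly6G+ HMGA2-OE and RUNX1mut/HMGA2-OE. It passed the filter only through HSC/P, so its call is a description. Igf2, the ligand for which the IGF2BP proteins are named, stayed between 0.0133 and 0.656 TPM, and the embryonic globins Hbb-bh1 and Hba-x were listed at 0 in all 7. Hbb-y, also an embryonic globin, was 0.136 and 0.507 TPM in HSC/P RUNX1mut/HMGA2-OE, 0.263 TPM in Ly6G+ RUNX1mut/HMGA2-OE and 0 in the other libraries. Dlk1, an imprinted NOTCH-like protein, was 0.0156 TPM in HSC/P HMGA2-OE and 106 and 9.54 TPM in the RUNX1mut/HMGA2-OE libraries (5 ± 1.55). It passed the filter only through the RUNX1mut/HMGA2-OE libraries, so this difference is a description.

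The partners of NGFR were only in part detected. The ligands Bdnf and Ntf3 and the receptor Ntrk3 were listed at 0 in all 7 libraries, Ntf5 reached 0.0619 TPM and Ntrk2 0.429 TPM. Sort1 (sortilin), the co-receptor for proneurotrophins, was 32.3 to 40 TPM in HSC/P and 24.2 to 52.5 TPM in Ly6G+ cells. It was lower in HSC/P after scaling (-1.84 ± 0.15, limma adjusted p = 0.00447), and the Nogo receptor Rtn4r, at 0.678 to 4.26 TPM in HSC/P, was higher (0.93 ± 0.16). Rtn4r was 0.0721 and 0 TPM in Ly6G+ HMGA2-OE and RUNX1mut/HMGA2-OE. It passed the filter only through HSC/P, so its call is a description. For HMGA2-OE in Ly6G+ cells Sort1 had 0.13 ± 0.11. All 17 signalling adaptors and secretase subunits were in the table. Between the cell types 3 were higher in HSC/P (Bex3, Maged1 and Zfp369) and 10 lower (among them Zfp110, Traf6, Irak1, Rhoa, Arhgdia, Adam17, Psenen, Aph1b and Ncstn), against 35.9% and 35.7% of all genes, with a median of -0.47. Maged1 was 0.0941 and 0.619 TPM in Ly6G+ HMGA2-OE and RUNX1mut/HMGA2-OE. It passed the filter only through HSC/P, so its call is a description. Zfp110, Traf6, Irak1, Arhgdia and Adam17 were lower only after scaling. In TPM every HSC/P library was above both Ly6G+ libraries with HMGA2-OE for each of them. Bex3, which binds the NGFR death domain, was 99.4, 96.9 and 115 TPM in HSC/P and 0.898 to 5.73 TPM in Ly6G+ cells (2.92 ± 0.12, limma adjusted p = 0.00223). For the HMGA2-OE term 14 were tested, 10 higher and 4 lower (median 0.06); Rhoa (0.13 ± 0.10), Arhgdia (0.05 ± 0.10) and Psenen (0 ± 0.10) were among the most abundant over all 7 libraries.

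The genes most like Hmga2 and Ngfr were ranked by Pearson correlation over the 7 libraries of log2(scaled TPM + 1). The ranking held 8691 genes that reach 10 TPM in a library, without the 8 genes, clone names and pseudogenes. The libraries share the division into cell types and the scaling, and no test was made. Closest to Hmga2 were Pla2g6 (0.988), Tusc1 (0.987), Polr2a (0.986), Zfp397 (0.985) and Ube2e1 (0.985). Pla2g6 was 12.7 to 16.3 TPM in HSC/P and 0.926, 0.867, 0.987 and 2.38 TPM in the Ly6G+ libraries, where Control and HMGA2-OE were close. Closest to Ngfr were Trim23 (0.961), Timeless (0.955), Chordc1 (0.952), Upf1 (0.939) and Adam10 (0.938), and Adam10 was 90.5 to 95.7 TPM in HSC/P and 14.7, 16.7, 12.9 and 33.9 TPM in the Ly6G+ libraries. Igf2bp2, left out of that ranking as one of the 8 genes, correlated with Ngfr at 0.974, above all 5. Ngfr was chosen from these same libraries, and both genes were low in those without HMGA2-OE, so this value is a description. Hmga2 correlated with Ngfr at 0.905 and with Igf2bp2 at 0.878, and Lin28a with Arid3a at 0.998.

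As a description only, with limits set after the values were seen and Ngfr chosen for this pattern, 17462 genes were below 0.5 TPM in both Ly6G+ libraries without HMGA2-OE. Of these, Ngfr and Igf2bp2 were the 2 at 2 TPM or more in all 5 libraries with it.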

How the data were processed

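RNA of 7 libraries was analysed. The submitters' processing notes name bcl2fastq, CASAVA 1.8, kallisto and the build mm10; no source used here gives the version of kallisto or its annotation. The unit of the deposited values, which the authors computed, was read as TPM from the values: no header names it, and columns sum to between 896820 and 993009. TPM keeps no depth, so precision from counting is unknown. Symbols and coordinates came from GENCODE M21 (GRCm38), which matched 27458 of 28987 genes. For each set of libraries, genes at 1 TPM or more in at least 2 libraries were kept (6 of the 8 described; Lin28b and Igf2bp3 were not), TPM were scaled by a trimmed mean of log ratios (trims of 0.3 and 0.05, unweighted), and limma 3.58.1 in R 4.3.3 was fitted to log2(scaled TPM + 1) with a variance trend. P-values were adjusted by Benjamini-Hochberg over all genes of the fit (threshold 0.05). The fits were tested on simulated data. The genes and lists were chosen with earlier results of these data known. Genes were named as follows: all 8; of each list those that passed or, where none did, up to the 4 most abundant; the 5 of most similar pattern. A few genes of the lists are counted but not reported here by name. Alternatives changed the pseudocount, filter, scaling, trend and libraries. Listed marker levels were summed in TPM. Figures used matplotlib 3.10.9.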

Additional observations from a re-analysis of the deposited data

How the results depend on the processing

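No paired analysis was made: the groups compared share fewer than 2 replicate numbers, and these numbers do not say which libraries came from the same mouse. Without scaling, 1 gene passed for the RUNX1 mutation in HSC/P, 133 for the RUNX1 term and 61 for the HMGA2-OE term in Ly6G+ cells, each against 0 in the main fits. The HMGA2-OE count was 58 in an additive fit to 7 libraries and 47 in that fit less Ly6G+ RUNX1mut/HMGA2-OE. The interaction count was 3247 with no filter and 1 with a filter at 5 TPM. The causes were not tested. Leaving out each HSC/P RUNX1mut/HMGA2-OE replicate, in an additive fit of genotype and cell type, gave 6399 to 6692 cell type calls.

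Some values changed sign. For the RUNX1 mutation in HSC/P, Hmga2 was 0.09 without scaling, and in the additive fit to 7 libraries Hmga1 was 0.18, Igf2bp2 0.41 and Ngfr 0.02. For the RUNX1 term in Ly6G+ cells, Lin28a was 0.51 and Arid3a 0.56 without scaling, and Hmga2 was -0.01 in the additive fit. Less Ly6G+ RUNX1mut/HMGA2-OE, that fit gave Hmga2 -0.18, Igf2bp2 -0.25 and Ngfr -0.15 for the RUNX1 term and Lin28a -0.15 for HMGA2-OE; without that library the cell type difference of Runx1 was -0.07 (an alternative chosen after seeing the data, as was leaving out S100a8 and S100a9). None of these passed the threshold. Of values with no test, Hmga2 was 0.13 in HSC/P without RUNX1mut/HMGA2-OE replicate 2, and in the Ly6G+ pair of HMGA2-OE and Control, Hmga1 was -0.07 and Arid3a -0.28 without scaling. In all, 15 of 400 alternatives of single-gene values had the opposite sign, 4 became calls and 7 lost them. With 1 library for most groups and unknown depth, small differences of these genes were not detectable. Large ones could also miss the threshold, as the Runx1 difference of 3.34 in HSC/P did. The counts of 0 therefore do not show that differences were absent.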
